A study of Mus musculus with 8 samples.

Results

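The immunity-related GTPases (IRG proteins) examined here are 6 genes, chosen by symbol out of 35963 gene symbols in the deposited count table: the regulators Irgm1, Irgm2 and Igtp and the effectors Iigp1, Tgtp1 and Tgtp2. The RNA-seq libraries were made from epithelial cells detached from proximal colon, and the mice were 4 weeks old. The 4 Ccna2-KO libraries came from Ccna2 fl/fl vil-Cre mice, in which Cre is driven by the villin promoter of intestinal epithelium, and are labelled Ccna2-/-. The 4 control libraries came from Ccna2 fl/fl mice, which carry the same floxed alleles and are labelled wild type. Ccna2 encodes cyclin A2, and the study asks what its loss does to the colonic epithelium. The labels do not state that each library is a separate mouse, so the errors and p-values reflect differences among libraries, which may in part be technical. The 6 genes were chosen with their Ccna2-KO and control levels known, and the split into effectors and regulators was part of that choice. Their levels, fold changes and the difference between the classes are therefore given as a description, with no test.

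IRG proteins are large GTPases that mouse cells make mainly in response to interferon gamma. They defend single cells against parasites and bacteria that live inside membrane vacuoles. Effectors of the GKS class, which carry the usual lysine in the nucleotide-binding loop, load onto the vacuole membrane and break it. Regulators of the GMS class carry a methionine there, sit on the cell's own membranes and hold the effectors inactive, so that a cell needs both classes in balance. Interferon gamma acts through its receptor and the kinases JAK1 and JAK2. Promoters of interferon target genes often hold DNA elements called GAS and ISRE, and the IRF factors bind the ISRE.

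The promoter stretches of 5 of the 6 genes are shown first, because 2 effectors and 2 regulators hold letter matches to the same pair of DNA elements. RefSeq promoter sequences (GRCm38.p6, 250 bases before to 50 after the transcript start) matched Irgm1, Irgm2, Igtp, Tgtp1 and Tgtp2. Iigp1 was not matched. In RefSeq's GRCm38.p6 annotation, Irgm1 (chr11:48865245-48871420), Tgtp1 (chr11:48985329-48992246) and Tgtp2 (chr11:49057196-49064212) lie near each other on chromosome 11, Igtp (chr11:58199556-58207592) and Irgm2 (chr11:58214977-58222783) lie close together farther along it. All stretches run 5′ to 3′ on the gene's strand, and capitals mark matches to GAS, searched as TTCNNNGAA, and to the ISRE core, searched as GAAA, any 2 bases and GAAA again, on both strands.
Tgtp1, minus strand, chr11:48992288-48992347: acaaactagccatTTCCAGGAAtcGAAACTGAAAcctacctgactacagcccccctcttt
Tgtp2, minus strand, chr11:49064247-49064306: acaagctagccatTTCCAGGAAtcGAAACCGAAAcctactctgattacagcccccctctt
Igtp, plus strand, chr11:58199498-58199557: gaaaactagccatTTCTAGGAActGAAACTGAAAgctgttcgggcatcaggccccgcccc
Irgm2, plus strand, chr11:58214889-58214948: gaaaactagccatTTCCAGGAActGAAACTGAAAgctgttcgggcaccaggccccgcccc
Irgm1, minus strand, chr11:48871415-48871474: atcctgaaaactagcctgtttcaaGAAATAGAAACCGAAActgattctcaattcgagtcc

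In Tgtp1, Tgtp2, Igtp and Irgm2 a GAS match was followed, after a gap of 2 bases, by an ISRE core match. The ISRE core began 77 and 70 bases before the start in the effectors Tgtp1 and Tgtp2, and 34 and 64 bases before it in the regulators Igtp and Irgm2. Irgm1 held 2 overlapping ISRE core matches, beginning 30 and 24 bases before the start, and these GAS letters were not in its window. Of 32851 promoters in the table, 3.44% held the ISRE core, 8.30% held GAS and 0.454% held both. The spacing of 2 bases was read from these genes and occurred in 5 promoters of the table: the 4 above and Gm12185, another gene of the family. A match describes letters and is not evidence of binding.

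**Figure D1:**
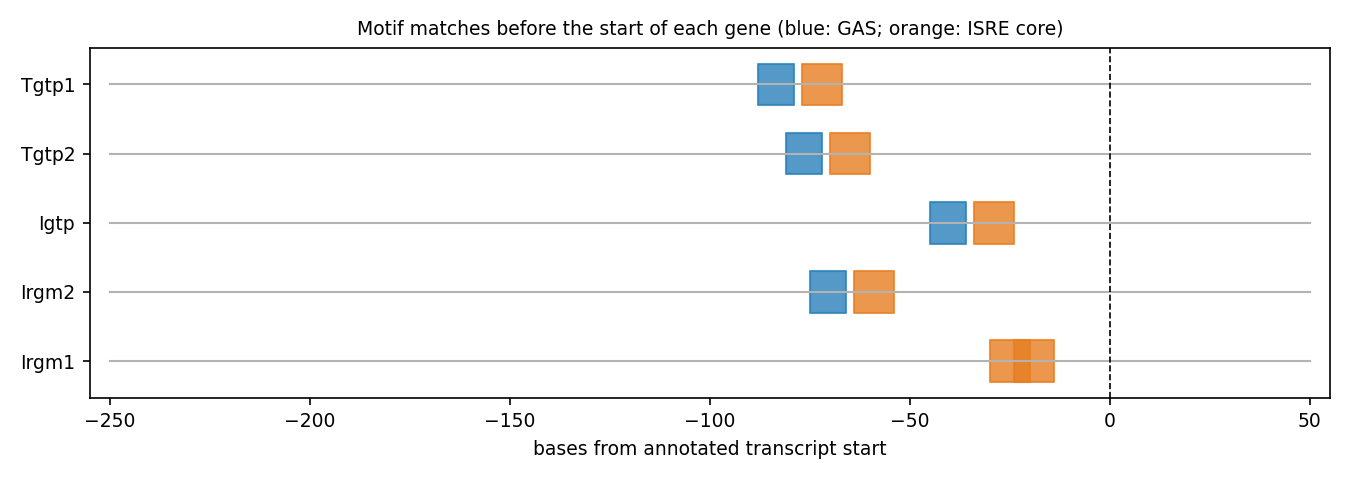
Matches to GAS (blue) and the ISRE core (orange) by distance in bases from the annotated transcript start (dashed line), over the 250 bases before and 50 after it. The GAS and ISRE core pair sits 2 bases apart in Tgtp1, Tgtp2, Igtp and Irgm2, and Irgm1 has 2 overlapping ISRE cores.

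Each library held 27162083 to 34386731 estimated counts. CPM is the count scaled to the normalized size of its library. The targeted gene did not separate the groups: Ccna2 had 18.2, 26.6, 26.6 and 16.2 CPM in the Ccna2-KO libraries, against 54.3, 25.9, 11.9 and 18.3 CPM in the controls (log2 fold change -0.33 ± 0.41 SE; edgeR adjusted p = 0.673). The counts are per whole transcript and do not isolate the deleted exons, so the groups are named by their labels. In edgeR's quasi-likelihood test over 15893 genes, with p adjusted by Benjamini and Hochberg, 6.40% of genes passed 0.05 as higher and 5.71% as lower in Ccna2-KO. The library numbers in the labels fall into a low set (595 to 598: Ccna2-KO replicate 4 and control replicates 2, 3 and 4) and a high set (621 to 641: the other 3 Ccna2-KO libraries and control replicate 1), so set and genotype overlap, and a set effect cannot be fully told apart from genotype. Epithelial markers were high in both groups, and 0 of 8 passed in edgeR, DESeq2 or limma voom (1 lower at an unadjusted p under 0.05), and Epcam averaged 1928 CPM in Ccna2-KO and 1884 CPM in controls (0.03 ± 0.10; adjusted p = 0.882).

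The regulators had levels in the Ccna2-KO libraries that lay within the range of the controls, apart from Irgm1 in Ccna2-KO replicate 2, which was just below it. Irgm1, which protects the cell's own membranes and lysosomes, had 54.5, 44.0, 56.8 and 63.6 CPM in the Ccna2-KO libraries, against 46.0, 137, 77.9 and 44.3 CPM in the controls. Irgm2, a regulator at the Golgi, had 26.5, 22.3, 24.7 and 30.3 CPM in the Ccna2-KO libraries, against 18.3, 71.3, 33.7 and 14.9 CPM in the controls. Igtp, also called Irgm3 and found at the endoplasmic reticulum, had 23.2, 14.9, 20.97 and 22.9 CPM in the Ccna2-KO libraries, against 20.6, 78.2, 37.0 and 12.6 CPM in the controls. For each of the 3 genes, control replicates 2 and 3 were above all Ccna2-KO libraries and the groups overlapped. The log2 fold changes, Ccna2-KO over control, were -0.48 ± 0.33 for Irgm1, -0.41 ± 0.43 for Irgm2 and -0.85 ± 0.48 for Igtp (SE). Control replicate 2 had 2.45 times the mean of the other 3 controls for Irgm1, 3.19 times for Irgm2 and 3.34 times for Igtp. Without it the log2 fold changes were -0.036, 0.21 and -0.19 for Irgm1, Irgm2 and Igtp. In bulk RNA, fewer cells that express a gene and less RNA per cell cannot be told apart.

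The 3 effectors among the members were lower in all 4 Ccna2-KO libraries than in all 4 controls. Iigp1, also called Irga6, which loads onto the parasite vacuole of Toxoplasma gondii, had 1.52, 1.35, 2.28 and 1.18 CPM in the Ccna2-KO libraries, against 6.86, 71.7, 13.3 and 2.88 CPM in the controls. Its gene lies apart from the other 5, at chr18:60373616-60392634. These values come from 45, 45, 73 and 30 counts in the Ccna2-KO libraries and 197, 1798, 431 and 95 counts in the controls. The groups did not overlap, but the controls themselves spanned 24.9-fold and the Ccna2-KO libraries 1.94-fold. Iigp1 averaged 1.58 ± 0.486 CPM in Ccna2-KO and 23.7 ± 32.3 CPM in controls (SD, n = 4 each), with a log2 fold change of -3.89 ± 0.93 (SE). Without control replicate 2 it was -2.27.

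Tgtp1 and Tgtp2, the paired genes of the effector Irgb6, which is among the first to reach the vacuole, cannot be told apart reliably. Their transcripts matched at 2804 of 2810 aligned bases (99.8%), so kallisto divided shared reads between them, and their sum is the firmer value. The sum was 1.65, 1.23, 1.62 and 1.18 CPM in the Ccna2-KO libraries, against 5.61, 28.6, 11.2 and 4.42 CPM in the controls. The groups did not overlap, and control replicate 2 was again the highest. The mean was 1.42 ± 0.252 CPM in Ccna2-KO and 12.5 ± 11.2 CPM in controls (SD, n = 4 each), a log2 fold change of -3.12 ± 0.58 (SE). Counted alone, Tgtp1 ranged from 0.314 to 1.12 CPM in Ccna2-KO and from 2.33 to 14.4 CPM in controls (-3.02 ± 0.65), and Tgtp2 from 0.499 to 0.876 CPM and from 2.09 to 14.2 CPM in those groups (-3.21 ± 0.60).

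All 6 genes passed the filter on low counts. In 3 of them, the effectors, the groups did not overlap and the value lay past the threshold as lower. Over all genes tested, 9.60% did not overlap with Ccna2-KO lower and 5.71% passed as lower. With the number set term, or without Ccna2-KO replicate 1 or 2, only 1 effector lay past the threshold. In limma voom, without a filter on low counts, with the replicate block, or without Ccna2-KO replicate 3 or 4, 2 did. The members' counts follow from the choice of genes, and nothing is read from them. The median log2 fold change was -3.21 over the effectors and -0.48 over the regulators, against -0.015 over all genes tested.

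**Figure D2:**
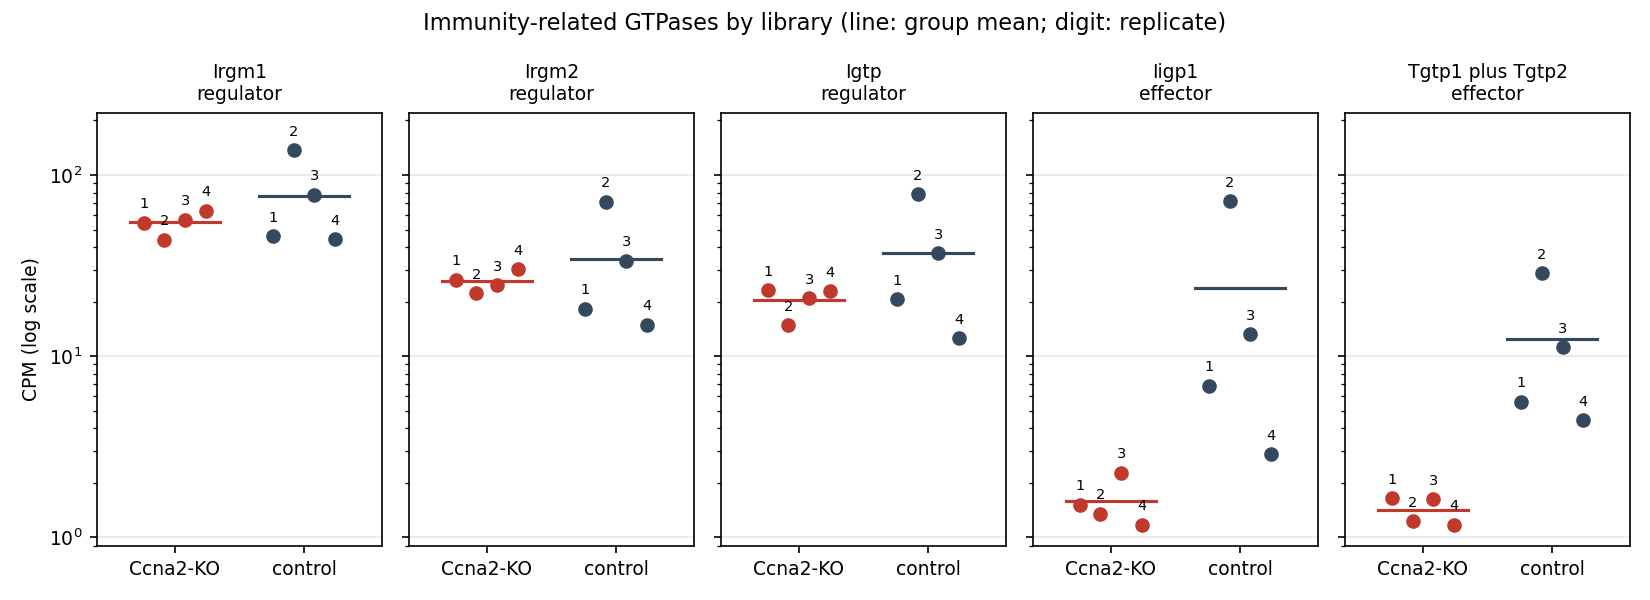
CPM (log axis) of the 3 regulators, Iigp1 and the sum of Tgtp1 and Tgtp2 in each of the 4 Ccna2-KO and 4 control libraries, with the replicate number at each point and the group mean as a line. Regulator levels of the groups overlap, and all effector levels of Ccna2-KO (1.18 to 2.28 CPM) lie below all those of the controls (2.88 to 71.7 CPM).

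The level of the member effectors relative to the member regulators was lower in every Ccna2-KO library than in every control. It is given as the mean log2 CPM of Iigp1 and the Tgtp sum, minus the mean log2 CPM of the 3 regulators. This difference is not corrected for transcript length, so only its change between libraries is read. It was -4.29, -4.18, -3.96 and -4.83 in the Ccna2-KO libraries, against -2.05, -1.01, -1.91 and -2.48 in the controls. The regulator level of control replicate 1 (4.70 mean log2 CPM) lay within the Ccna2-KO range of 4.61 to 5.15, and that of control replicate 4 (4.35) lay below it. In the difference, both controls still lay apart from every Ccna2-KO library. The mean was -4.31 ± 0.37 in Ccna2-KO and -1.86 ± 0.62 in controls (SD, n = 4 each), 2.45 lower on the log2 scale in Ccna2-KO. The Tgtp sum minus the regulators was -4.37 ± 0.31 in Ccna2-KO and -2.02 ± 0.24 in controls, and Iigp1 minus the regulators was -4.25 ± 0.46 in Ccna2-KO and -1.71 ± 1.01 in controls. In the low number set the difference was -4.83 in Ccna2-KO replicate 4, against -2.48 to -1.01 in the 3 controls. In the high set it was -4.29 to -3.96 in the 3 Ccna2-KO libraries, against -2.05 in control replicate 1. With a term for the number set, the change was -2.56, and with single libraries left out it was -2.66 to -2.17.

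**Figure D3:**
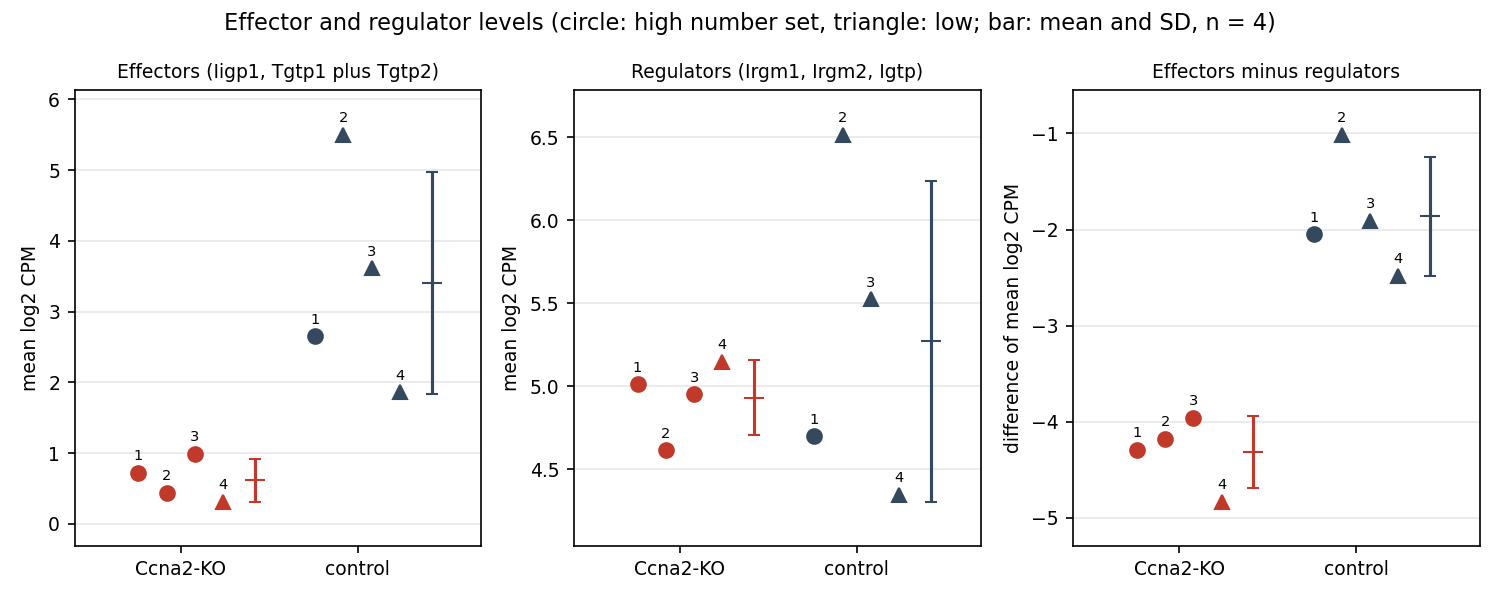
Mean log2 CPM of the effectors (left), of the regulators (middle) and their difference (right) in each library, with the replicate number at each point, circles for the high and triangles for the low library number set, and bars for mean and SD (n = 4). The difference is -4.83 to -3.96 in Ccna2-KO and -2.48 to -1.01 in controls.

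Per kilobase of transcript, Irgm1 was the most abundant of the 6 genes in both groups, at 24.2 ± 3.60 CPM per kb in Ccna2-KO and 33.8 ± 19.2 in controls (SD, n = 4 each). The Irgm1 length is that of NM_008326.1 (2259 bases), which held the smaller share of its counts, so its place in this order depends on that choice. Igtp followed at 10.1 ± 1.92 in Ccna2-KO and 18.3 ± 14.5 in controls, and Irgm2 at 7.49 ± 0.976 in Ccna2-KO and 9.99 ± 7.46 in controls. In Ccna2-KO the ranges of Igtp (7.35 to 11.5) and Irgm2 (6.44 to 8.75) overlapped. Iigp1 had 0.523 ± 0.161 CPM per kb in Ccna2-KO and 7.83 ± 10.7 in controls, and in control replicate 2 it reached 23.7, above the 20.6 of Irgm2 there. The Iigp1 length (3024 bases) is the mean of NM_021792.4 and NM_001146275.1. Of the Iigp1 counts these held 17.5% and 0% in Ccna2-KO and 51.0% and 5.85% in controls. The place of Iigp1 therefore also depends on that choice. Counted separately, Tgtp1 and Tgtp2 had the lowest means in the control group, at 2.15 ± 2.02 and 2.27 ± 1.95, and had 0.260 ± 0.118 and 0.244 ± 0.0750 in Ccna2-KO. Shared reads were divided between them, so the separate values do not fix their place relative to Iigp1.

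Irgm1 and Iigp1 had several transcripts in the table, and each of the other 4 genes had 1. Irgm1 had 3 transcripts, of which XM_006532305.2 took 70.3% of the counts in Ccna2-KO and 62.2% in controls, and NM_008326.1 took 26.7% and 33.3% in those groups. Iigp1 had 6 transcripts. NM_021792.4 held 1121 and 165.5 counts in control replicates 2 and 3 and 0 in control replicates 1 and 4. In Ccna2-KO it held 15.3, 0, 18.8 and 0 counts. XM_011246979.2 held 61.3% of the Iigp1 counts in Ccna2-KO and 8.31% in controls. At 30 to 73 counts per Ccna2-KO library the division among Iigp1 transcripts is not precise, and the sum is used throughout.

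Of the 10 other genes of the family that were looked up, 8 passed the filter, and 0 passed the threshold in edgeR (3 lower at an unadjusted p under 0.05, 2 lower in DESeq2, 0 in limma voom). Gm12250, which encodes the effector Irgb10 that acts on bacterial membranes, had 5.49, 4.32, 6.15 and 6.39 CPM in the Ccna2-KO libraries, against 3.90, 23.5, 7.81 and 1.76 CPM in the controls. Its groups overlapped, and its log2 fold change was -0.72 ± 0.64 (adjusted p = 0.534), and 0.31 without control replicate 2. Unlike the 3 member effectors, this effector did not separate the groups, so the contrast between member effectors and regulators does not hold for every effector. Gm12185, whose promoter shares the spaced GAS and ISRE pair, had 1.01, 0.420, 0.936 and 0.471 CPM in Ccna2-KO, against 1.05, 5.95, 2.58 and 0.878 CPM in controls (-1.86 ± 0.63; adjusted p = 0.0885). F830016B08Rik (-2.49 ± 0.84; adjusted p = 0.0891), 9930111J21Rik1 (-1.38 ± 0.55; adjusted p = 0.148) and Gm5431 (-0.25 ± 0.42; adjusted p = 0.768) did not pass, nor did 9930111J21Rik2 (0.36 ± 0.87; adjusted p = 0.846) and Irgc1 (0.14 ± 0.61; adjusted p = 0.915). Without control replicate 1, 3 of the 8 passed as lower. Irgq, a widely expressed relative, averaged 73.5 CPM in Ccna2-KO and 70.8 CPM in controls (0.05 ± 0.20; adjusted p = 0.905), and passed as higher with the number set term (adjusted p = 0.0487). Gm4841 and Gm4951 did not pass the filter. Gm4841 had 4, 8, 8 and 1 counts in Ccna2-KO, against 12, 83, 20 and 9 in controls, and Gm4951 had 2, 12, 3 and 2 in Ccna2-KO, against 7, 81, 9 and 2 in controls. Reads shared among these related genes make single values uncertain.

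The tested genes that carry the interferon gamma signal did not pass in the main edgeR fit. Of 15 genes of the ligand, receptor and signalling steps, 14 were tested and 0 passed in edgeR (2 lower at an unadjusted p under 0.05, 1 lower in DESeq2, 0 in limma voom), with a median log2 fold change of -0.079. Ifng itself, the cytokine of T and NK cells, had 4, 1, 0 and 4 counts in the Ccna2-KO libraries, against 4, 8, 5 and 5 in the controls, and was not tested. Ifngr1 averaged 313 CPM in Ccna2-KO and 296 CPM in controls, and Ifngr2 averaged 141 CPM in Ccna2-KO and 149 CPM in controls (adjusted p = 0.792 and 0.751). Jak1 (-0.026 ± 0.091; adjusted p = 0.895) and Jak2 (0.16 ± 0.19; adjusted p = 0.651) did not pass. Irf1, an interferon-induced factor that binds ISRE sites, had 166, 87.8, 192 and 261 CPM in Ccna2-KO, against 188, 459, 353 and 332 CPM in controls (-0.91 ± 0.34; adjusted p = 0.119). Irf1 and Irf8 (-0.42 ± 0.19; adjusted p = 0.195) passed without control replicate 1, and Irf1 was the gene that passed as lower in DESeq2. Irf9 (0.10 ± 0.26; adjusted p = 0.858) and the feedback inhibitor Socs1 (0.25 ± 0.27; adjusted p = 0.625) did not pass. Of 8 tested genes of the type I and III interferon receptors and their signalling, 0 passed in edgeR, DESeq2 or limma voom (2 lower at an unadjusted p under 0.05; median -0.065). Without control replicate 1, 3 signalling genes and 2 of the type I and III genes passed as lower, and with the number set term 2 signalling genes passed as higher, Jak2 among them.

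Among targets of interferon gamma, guanylate-binding proteins and class II genes were lower, as the effectors were. The guanylate-binding proteins are GTPases that join the IRG proteins at the vacuole. Of 7 tested, 4 fell and 0 rose (median -2.07). Gbp8 fell by 4.43 on the log2 scale (SE 0.63; adjusted p = 0.00302), Gbp4 by 3.31 (SE 0.62; adjusted p = 0.00947) and Gbp9 by 2.33 (SE 0.50; adjusted p = 0.0167). Gbp2 had 10.1, 5.52, 4.87 and 5.22 CPM in Ccna2-KO, against 14.0, 62.4, 26.3 and 5.51 CPM in controls (-2.07 ± 0.63; adjusted p = 0.0642). With the number set term 2 guanylate-binding proteins fell, and without Ccna2-KO replicate 2 or 3, 2 did. The Gbp9 call ended in each of these 3 fits.

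All 6 tested class II genes fell (median -4.09). Cd74, the invariant chain, had 12.03, 5.19, 6.93 and 4.71 CPM in Ccna2-KO, against 142, 867, 129 and 61.2 CPM in controls (-5.38 ± 0.89; adjusted p = 0.00581). The groups were apart in all libraries, and control replicate 2 again stood highest. H2-DMb1 (-5.02 ± 0.86; adjusted p = 0.00660) and H2-Ab1 (-3.76 ± 0.73; adjusted p = 0.0113) fell as well. Ciita, the transactivator of class II genes, fell by 3.73 (SE 0.79; adjusted p = 0.0160). With the number set term 2 class II genes fell, and without a filter on low counts 3 did. Those that fell numbered 4 in limma voom and 4 without Ccna2-KO replicate 2 or 3. The H2-Ab1 call ended with the set term and without a filter, and the Ciita call with the set term. The Ciita call also ended without Ccna2-KO replicate 2 or 3.

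Of 11 class I and immunoproteasome genes, 2 fell and 0 rose (median -0.67). Psmb8 had -1.30 ± 0.34 (adjusted p = 0.0370) and Psmb10 -0.67 ± 0.18 (adjusted p = 0.0391), both subunits of the immunoproteasome. Neither call held without any 1 of the 4 Ccna2-KO libraries or without control replicate 3, and that of Psmb10 also ended without control replicate 2. The Psmb8 call also ended with the number set term (adjusted p = 0.123), without a filter on low counts (adjusted p = 0.0576) and in limma voom (adjusted p = 0.0560). Tap1 (-0.69 ± 0.46; adjusted p = 0.386), Psmb9 (-0.95 ± 0.36; adjusted p = 0.127) and Nlrc5, the transactivator of class I genes (-1.53 ± 0.70; adjusted p = 0.199), did not pass. Without control replicate 1, 4 genes of this list fell, and the Psmb9 call appeared without control replicate 4.

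Other targets were mixed. Of 22, 3 fell and 1 rose (median 0.10). Slfn2 fell by 2.10 (SE 0.33; adjusted p = 0.00478). Ubd, a ubiquitin-like modifier named after its values were seen, fell by 4.33 (SE 1.15; adjusted p = 0.0389), and the other was Ciita. Gch1, the first enzyme of tetrahydrobiopterin synthesis, rose to 74.1 CPM in Ccna2-KO, against 28.6 CPM in controls (1.37 ± 0.12; adjusted p = 0.000270). Without Ccna2-KO replicate 2 or 3, or with the number set term, 1 fell, and without control replicate 2, 3 rose.

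Type I interferon-stimulated genes had a positive median. Of 20 tested, 0 passed in edgeR (5 higher at an unadjusted p under 0.05, 1 higher in DESeq2, 3 higher in limma voom), with a median log2 fold change of 0.77. Without control replicate 2, 6 passed as higher, and with the number set term 2 did. Their summed level was 912 to 1455 CPM in Ccna2-KO and 418 to 1240 CPM in controls. The ISRE core was in the promoter of 9 of the 14 genes of this list and of 5 of the 5 guanylate-binding protein genes that had an entry. The share was not tested.

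**Figure D4:**
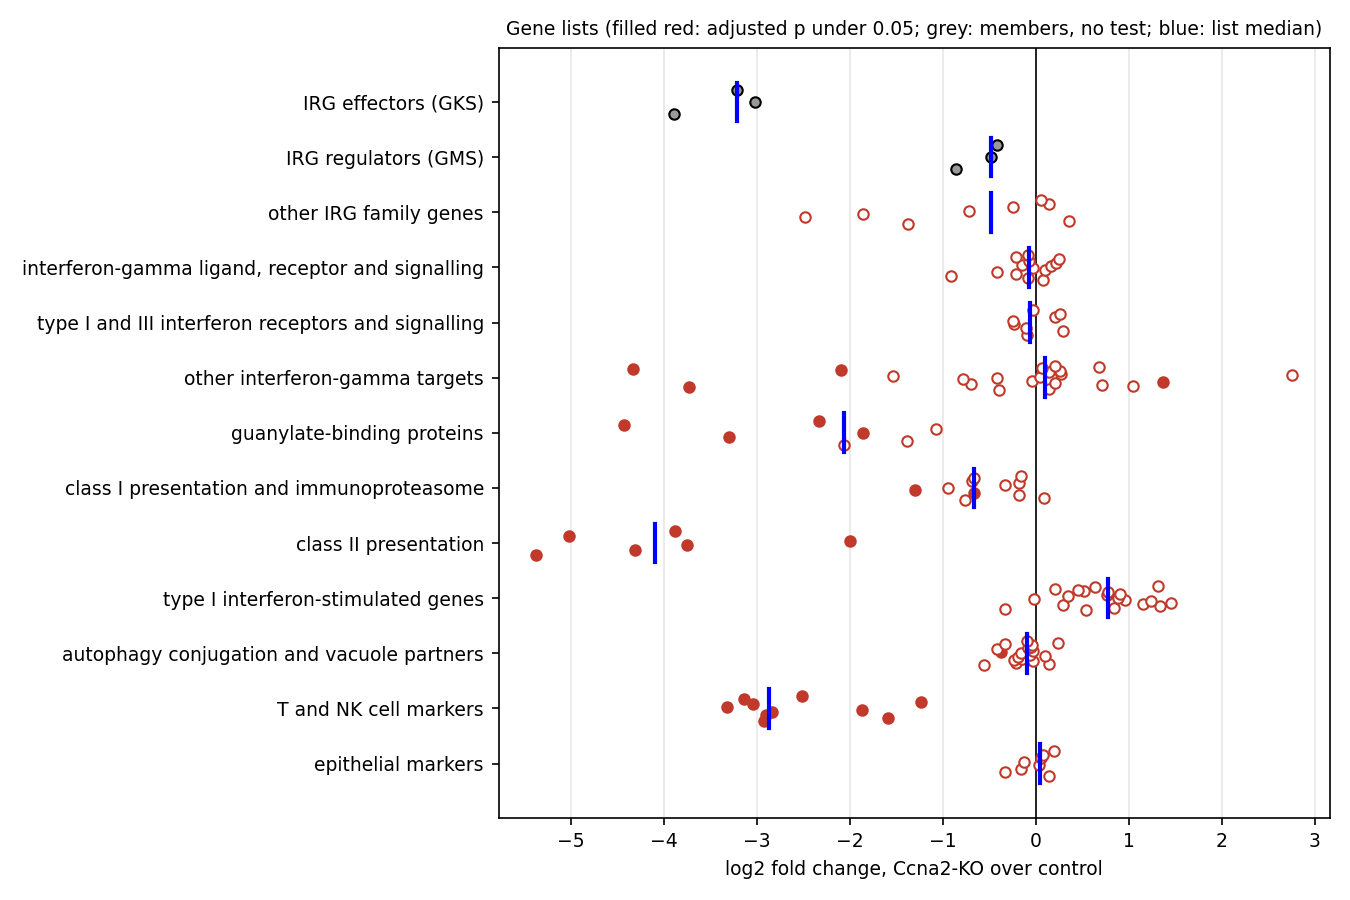
Log2 fold change, Ccna2-KO over control, of each tested gene by list, with filled red points for adjusted p under 0.05, open points for the rest, grey points for the 6 members (no test) and a blue bar for the list median. Effectors (median -3.21), guanylate-binding proteins (-2.07) and class II genes (-4.09) lie to the left, and type I interferon-stimulated genes have a median of 0.77.

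Most genes of the autophagy conjugation machinery, on which the placement of IRG proteins depends, did not pass. Of 19 genes tested, 1 fell and 0 rose in edgeR (median -0.094), while 4 were lower and 1 higher in DESeq2, 1 was lower in limma voom, and 4 were lower and 1 higher at an unadjusted p under 0.05. In 4 of the 19 the groups did not overlap with Ccna2-KO lower, against 9.60% of all genes tested. In 1 of the 19 they did not overlap with Ccna2-KO higher. Atg5 (-0.15 ± 0.10; adjusted p = 0.410), Atg7 (-0.19 ± 0.15; adjusted p = 0.452), Atg16l1 (-0.028 ± 0.097; adjusted p = 0.895) and Gabarapl2 (-0.031 ± 0.077; adjusted p = 0.850) did not pass. Gabarapl1 fell by 0.38 (SE 0.10; adjusted p = 0.0394), a call that held without control replicate 1 and ended without any 1 of the other 7 libraries, with the number set term and without a filter on low counts. Without control replicate 1, 3 genes of this list fell and 1 rose.

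Markers of T and NK cells were lower in Ccna2-KO, as the effectors were. Of 14 markers on the list, which was drawn up with earlier results of these data known, 10 were tested. All 10 fell (median -2.88), against 8 with the number set term and 7 to 10 with single libraries left out. Cd4 and Ncr1 did not pass the filter, and Trac and Trbc2 had no entry. The count does not cover every marker of these cells. Cd3e had 0.876, 0.300, 0.468 and 0.627 CPM in Ccna2-KO, against 2.02, 6.90, 4.89 and 3.24 CPM in controls (-2.91 ± 0.45; adjusted p = 0.00458). Cd2 (-2.93 ± 0.43; adjusted p = 0.00353) and Cd3g (-2.84 ± 0.42; adjusted p = 0.00370) fell too. The summed level of the 12 markers in the table was 10.4 to 19.8 CPM in Ccna2-KO, against 27.9, 132, 92.9 and 51.6 CPM in control replicates 1 to 4, and none of the defining CD3 genes was at 0 in any library. Within the groups the order of the libraries differed. Ccna2-KO replicate 4 had the highest marker sum of its group (19.8 CPM) and the lowest effector sum (2.35 CPM). Control replicate 4 had a higher marker sum than control replicate 1 (51.6 against 27.9 CPM) but a lower effector sum (7.30 against 12.5 CPM). Control replicate 2 was highest in both sums. The part of these cells in the effector levels was not tested.

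Of 10 pan-leukocyte and myeloid markers, 2 fell and 1 rose. Ptprc, the leukocyte antigen CD45, had 5.09, 2.19, 3.81 and 5.45 CPM in Ccna2-KO, against 7.07, 38.7, 37.2 and 18.8 CPM in controls (-2.63 ± 0.51; adjusted p = 0.0114). Fcer1g fell by 1.78 (SE 0.48; adjusted p = 0.0409) and Cd68 rose by 1.13 (SE 0.28; adjusted p = 0.0313). The Cd68 and Fcer1g calls ended without Ccna2-KO replicate 2 or 3, without control replicate 2, 3 or 4, and with the number set term. The Fcer1g call also ended without Ccna2-KO replicate 4. The summed level of this list was 15.9 to 23.0 CPM in Ccna2-KO and 20.1 to 63.0 CPM in controls. Of 2 tested B and plasma cell markers, 0 passed in any of edgeR, DESeq2 and limma voom (0 at an unadjusted p under 0.05). Of 5 tested fibroblast and endothelial markers, 1 fell and 0 rose in edgeR, with a median log2 fold change of 0.82. The 1 that fell was Pecam1 (-0.94 ± 0.24; adjusted p = 0.0315), which did not pass without any 1 Ccna2-KO library or control replicate 3. It was the only 1 of the 5 with a log2 fold change below 0. In DESeq2, and at an unadjusted p under 0.05, 1 was higher and 1 lower, and in limma voom 1 was lower.

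**Figure D5:**
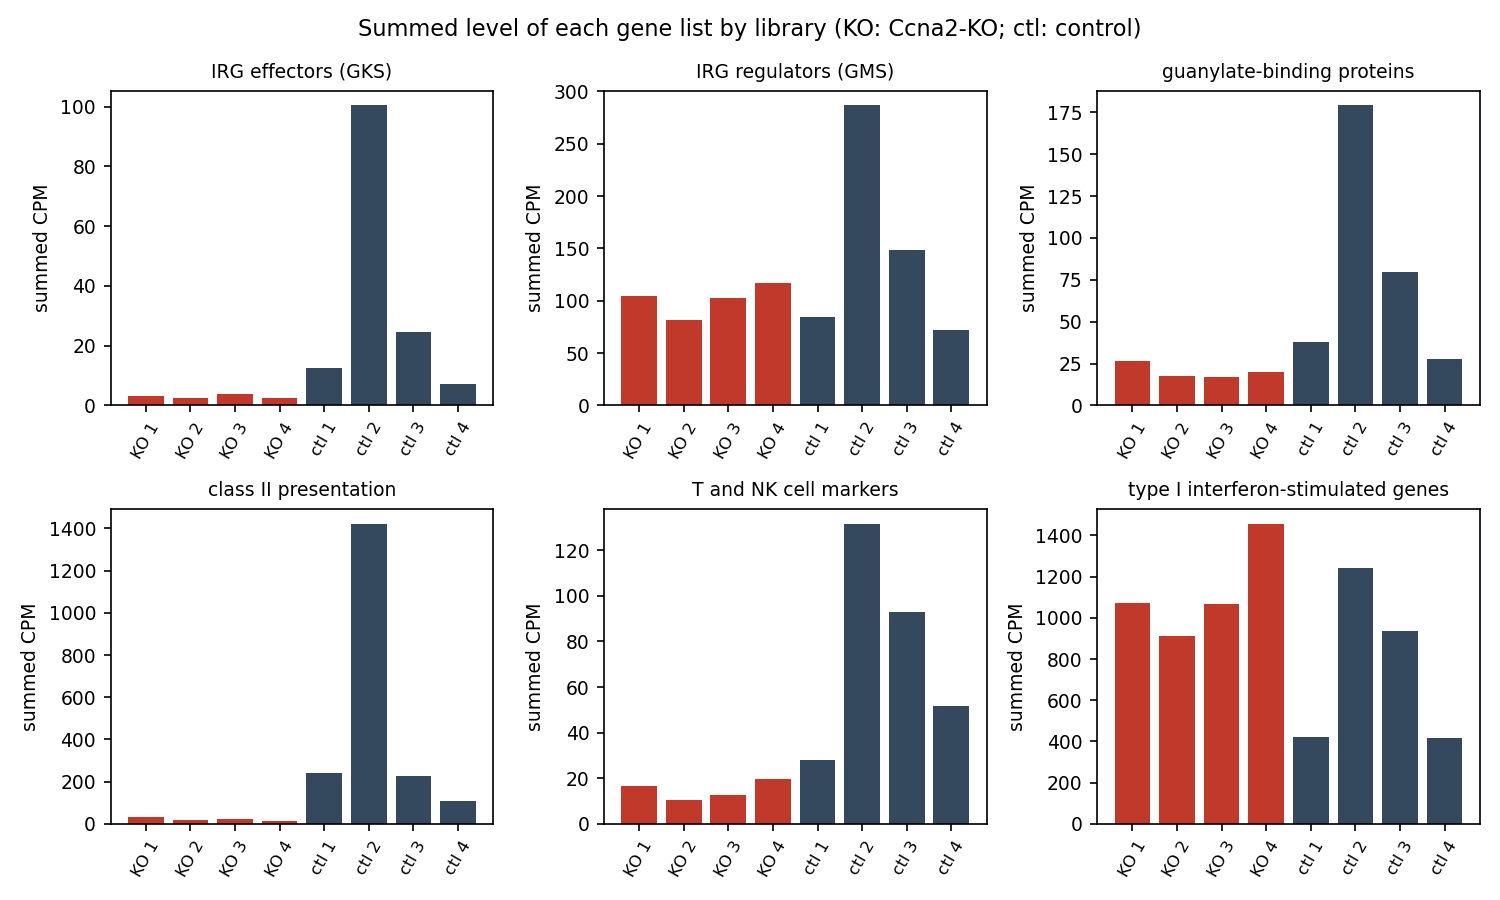
Summed CPM of each gene list in the 4 Ccna2-KO and the 4 control libraries, with each axis starting at 0. Effectors, guanylate-binding proteins, class II genes and T and NK cell markers are lower in every Ccna2-KO library than in every control, regulators and type I interferon-stimulated genes overlap, and control replicate 2 is the highest control in all 6 panels.

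The genes whose pattern over the 8 libraries was most like that of the 6 IRG genes were found by the root mean square difference between centred log2 CPM profiles, among 11043 genes. The nearest was Gbp6 (0.209), followed by the immunoproteasome subunit Psmb8 (0.353), the matrix protein gene Tgfbi (0.353), Gbp2 (0.376) and the death ligand Tnfsf10 (0.379). The profile of the members already holds their difference between the groups, so genes found this way are lower in Ccna2-KO largely through the choice. Their p-values and calls are given as a description only. Gbp6 had 4.21, 3.42, 3.34 and 5.06 CPM in Ccna2-KO, against 7.21, 32.1, 13.4 and 5.57 CPM in controls (-1.86 ± 0.51; adjusted p = 0.0429). Tnfsf10 averaged 7.26 CPM in Ccna2-KO and 18.3 CPM in controls (-1.33 ± 0.35; adjusted p = 0.0366), and Tgfbi did not pass (-1.32 ± 0.41; adjusted p = 0.0688). The calls of Gbp6 and Tnfsf10 ended without any 1 of 6 libraries, all but control replicates 1 and 4, with the number set term and in limma voom, and that of Gbp6 also without a filter on low counts.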

How the data were processed

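The authors' deposited table holds estimated counts per RefSeq transcript for 8 libraries. The submitters' processing notes name kallisto and GRCm38 (mm10); kallisto's version and the strand setting: not given in the sources used here. Because kallisto divides reads shared by several transcripts, near-identical genes have uncertain values. Of 107193 transcripts, 687 had no symbol (3.19% to 5.51% of counts) and were left out. Counts were summed per symbol and rounded. The test was edgeR 4.0.16 (R 4.3.3): default filter, TMM scaling, robust quasi-likelihood F test over all 8 libraries, adjusted over 15893 genes. Its code was run on simulated counts with the same dispersion for all genes and no outlying library or set effect. That run does not give its error rate on these libraries. Log2 CPM uses a prior count of 2. SE belongs to log2 fold changes, SD to 4 libraries. Lengths came from the GENCODE transcripts paired with each gene's RefSeq accession.

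Members and lists were chosen with earlier results of these data known. Genes were named by rule: members, other IRG genes, fixed pathway genes, up to 3 passing genes per list with the smallest adjusted p, and the 5 nearest profiles. A gene that this rule names is not reported here. Alternatives were DESeq2 1.42.0, limma 3.58.1 voom, upper quartile or RLE scaling, no filter on low counts, a filter of 1 CPM in every library of either group, a replicate block, a number set term (labels divided at the widest gap) and leaving out each library.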

Additional observations from a re-analysis of the deposited data

Results flagged for a closer look

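Among 59 items looked at in both groups of 4 libraries (118 group comparisons), 11 had a library whose gap to its nearest neighbour exceeded the critical share of the group's range (0.829). That share is passed about 1 time in 20 by independent, normally distributed values. CPM values of related genes are neither, so the 11 are not set against that rate. Of these, 7 were control replicate 2 as the highest control: Iigp1 at 71.7 CPM (next 13.3), Cd74 at 867 CPM (next 142), H2-Ab1 at 188 CPM (next 37.5), F830016B08Rik at 11.5 CPM (next 2.52), Gm4841 at 3.31 CPM (next 0.615), Gm4951 at 3.23 CPM (next 0.277) and Ifng at 0.319 CPM (next 0.154). In the Ccna2-KO group, replicate 1 was highest for Gbp2 at 10.1 CPM (next 5.52) and Pecam1 at 1.48 CPM (next 1.26). Ccna2-KO replicate 2 was highest for Gm4951 at 0.360 CPM (next 0.0936) and lowest for Gbp9 at 0.690 CPM (next 0.824).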

How the results depend on the processing

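The effector minus regulator difference was recomputed with RLE or upper quartile scaling, the replicate block, the number set term and single libraries left out. It kept its direction and lay between -2.66 and -2.17. Scaling nearly cancels within a library and the block leaves group means unchanged, so those runs (-2.45) could hardly move it. The genes and their classes were chosen with these values known, so the range is a description only. Every log2 fold change of Iigp1, Tgtp1 and Tgtp2 stayed negative (-4.27 to -2.15). Irgm2 turned to 0.0059 with the number set term and ranged from -0.67 to 0.21 with single libraries left out. Genes passing as higher and lower numbered 1017 and 907, against 619 and 368 with the replicate block, 1518 and 1431 in DESeq2 and 1477 and 1415 with the number set term. Single libraries left out gave 572 to 2457 higher and 400 to 2170 lower. Of 88 tested genes of 7 interferon lists, 1 passed as higher and 15 as lower. Lower numbered 9 without a filter, 9 with the replicate block and 7 with the set term; higher numbered 4 in DESeq2, 4 in limma voom and 6 with the set term. Left-out libraries gave 1 to 9 higher and 7 to 23 lower. The replicate numbers did not pair the libraries: deviations of same-numbered libraries correlated at -0.069, -0.352, -0.263 and 0.153, so the block is an extra term only. With it, 5 T and NK cell markers, 1 guanylate-binding protein and 0 class I and immunoproteasome genes passed as lower. Among genes that did not pass, signs turned with the set term (Ifngr2 0.057, Jak1 0.022, Gm5431 0.23, Irgc1 -0.81), and in limma voom (Gm5431 0.0091, Irgc1 -0.059). With single libraries left out the ranges crossing 0 were Ccna2 -0.58 to 0.24, Ifngr1 -0.035 to 0.15, Jak1 -0.075 to 0.0051, Irf9 -0.13 to 0.31, Atg16l1 -0.068 to 0.026, Gm12250 -1.07 to 0.31, Gm5431 -0.50 to 0.28, 9930111J21Rik2 -0.052 to 1.15, Irgc1 -0.15 to 0.61 and Irgq -0.11 to 0.14. The cause of these changes was not tested. At 30 to 73 Iigp1 counts per Ccna2-KO library, depth limits transcript-level values.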
